A study of Mus musculus with 33 samples.

Results

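The complement genes examined here are 34 listed symbols that cover the C1q chains, the other early components, the lectin and alternative pathways, the terminal components, the soluble and membrane-bound regulators and the receptors. They were taken as the rows of the deposited gene count matrix whose gene column equals one of those symbols, and all 34 were found among its 19169 rows. That rule reads no measured value, though the list itself was drawn up with earlier results of these data known. Of the 34, 33 were among the 14934 genes with enough counts to test, and Cfd was not. The count matrix comes from polyA RNA sequencing of whole mouse liver, and the study asked what a diet containing GS-444217, a selective inhibitor of the stress-activated kinase ASK1, does in mice with a mutant inflammasome sensor. Knock-in (KI) mice carried 1 tamoxifen-inducible mutant allele, written Nlrp3A350V/+CreT, and the other mice were wild type (WT). KI ASK1i libraries (n = 10, 5 male and 5 female) came from KI mice fed the GS-444217 diet for 6 weeks, and KI control libraries (n = 5, 4 male and 1 female) came from KI mice given control chow with placebo for 6 weeks. WT ASK1i libraries (n = 8, 4 male and 4 female) and WT control libraries (n = 10, 3 male and 7 female) came from WT mice on the same diets. The cell type in which the Cre was active, the age of the mice, and whether WT mice carried the Cre or received tamoxifen are among the facts not given in the sources used here. Nothing in the labels ties each library to its own animal, and the p-values below therefore measure spread between libraries, which may be technical.

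Total expected counts were 32245900 to 38393500 in KI ASK1i, 33754700 to 38584300 in KI control, 30212400 to 40008100 in WT ASK1i and 28099700 to 33572200 in WT control libraries. Levels below are counts per 1000000 counts of the library (CPM), on library sizes scaled by the trimmed mean of M values (TMM). The targeted gene Nlrp3 averaged 11.1 ± 3.45 CPM in KI control and 3.03 ± 1.05 CPM in WT control, and 7.90 ± 2.66 CPM in KI ASK1i and 2.73 ± 0.492 CPM in WT ASK1i (SD, n = 5, 10, 10 and 8). A library, labelled KI ASK1i replicate 5 and female, stood apart. Its Nlrp3 level was 2.10 CPM, below all 8 WT ASK1i libraries (2.38 to 3.88 CPM), while the other 9 KI ASK1i libraries were at 5.51 to 11.0 CPM, so its level of the targeted gene goes against its label. On the first principal component of all tested genes it scored -46.2, the other 9 KI ASK1i libraries 41.6 to 81.8, KI control 57.4 to 71.1 and WT libraries -57.6 to -35.6. It stays in every comparison under its label, and the counts and leading genes that involve KI ASK1i are given without it as well.

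Complement is a set of plasma proteins, made largely by hepatocytes, that mark targets for clearance and can perforate membranes. C1q starts the classical pathway, mannose-binding lectins and ficolins start the lectin pathway, and factor B with factor D drives the alternative loop. All routes meet at C3, whose cleavage leads to C5 and to the membrane attack complex of C5b, C6, C7, C8 and C9. C1q and properdin are made mainly by macrophages and other myeloid cells, including the Kupffer cells of the liver sinusoids, and the receptors for the fragments C3a and C5a sit mostly on myeloid cells.

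Most complement genes were higher in KI than in WT livers on either diet. On control chow, edgeR's quasi-likelihood test with Benjamini-Hochberg adjustment over all tested genes called 28 of the 33 at an adjusted p under 0.05, 21 higher and 7 lower in KI. The same rule called 56.7% of all tested genes, 27.8% higher and 28.9% lower, so the share of higher calls among the complement genes is to be read against a broad difference. Their median log2 fold change, KI over WT, was 0.68, against -0.03 over all tested genes. On the ASK1i diet 31 of 33 were called, 25 higher and 6 lower, where 59.1% of all tested genes were called, 30.3% higher and 28.8% lower. The median there was 0.84, against 0.01 over all tested genes. Without the library labelled KI ASK1i replicate 5 the counts were 28 and 31, where 59.8% and 63.2% of all tested genes were called, with medians of 0.69 and 0.92. Without that library the ASK1i diet log2 fold change was 1.95 (SE 0.14) for C1qb, 3.72 (SE 0.20) for C5ar1, 1.32 (SE 0.12) for C3, 2.04 (SE 0.09) for C4bp, -1.60 (SE 0.11) for C8g and -2.26 (SE 0.15) for Mbl2.

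The groups separated library by library for many of the genes. On control chow, 21 of the 33 had every KI library beyond every WT library, 17 on the high side and 4 on the low side, where 29.1% of all tested genes did. With ASK1i in the diet, 4 did, namely Cfp, C3ar1 and C5ar1 on the high side and Cd59a on the low side, where 6.27% of all tested genes did. Without the library labelled KI ASK1i replicate 5, 20 did, 17 high and 3 low, where 25% of all tested genes did. The library titles also carry codes, L1 and L5 to L8, whose meaning the labels do not give. KI control and WT control libraries share no code, so no code holds both genotypes on control chow, and there code and genotype cannot be told apart within a code. With the code as a term in place of the title set, 19 of the 33 were called on control chow, where 34.2% of all tested genes were, and C1s, C2, Hc, C6, C7, Masp2, Mbl1, Cd46 and Cr2 were no longer called (adjusted p from 0.0767 to 0.672). Code L1 holds 4 KI ASK1i and 2 WT ASK1i libraries, and within it alone 25 of the 33 were called, where 36.1% of all tested genes were. The WT libraries of L1 are all female, those of KI are of both sexes, and that fit held no sex term.

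**Figure D1:**
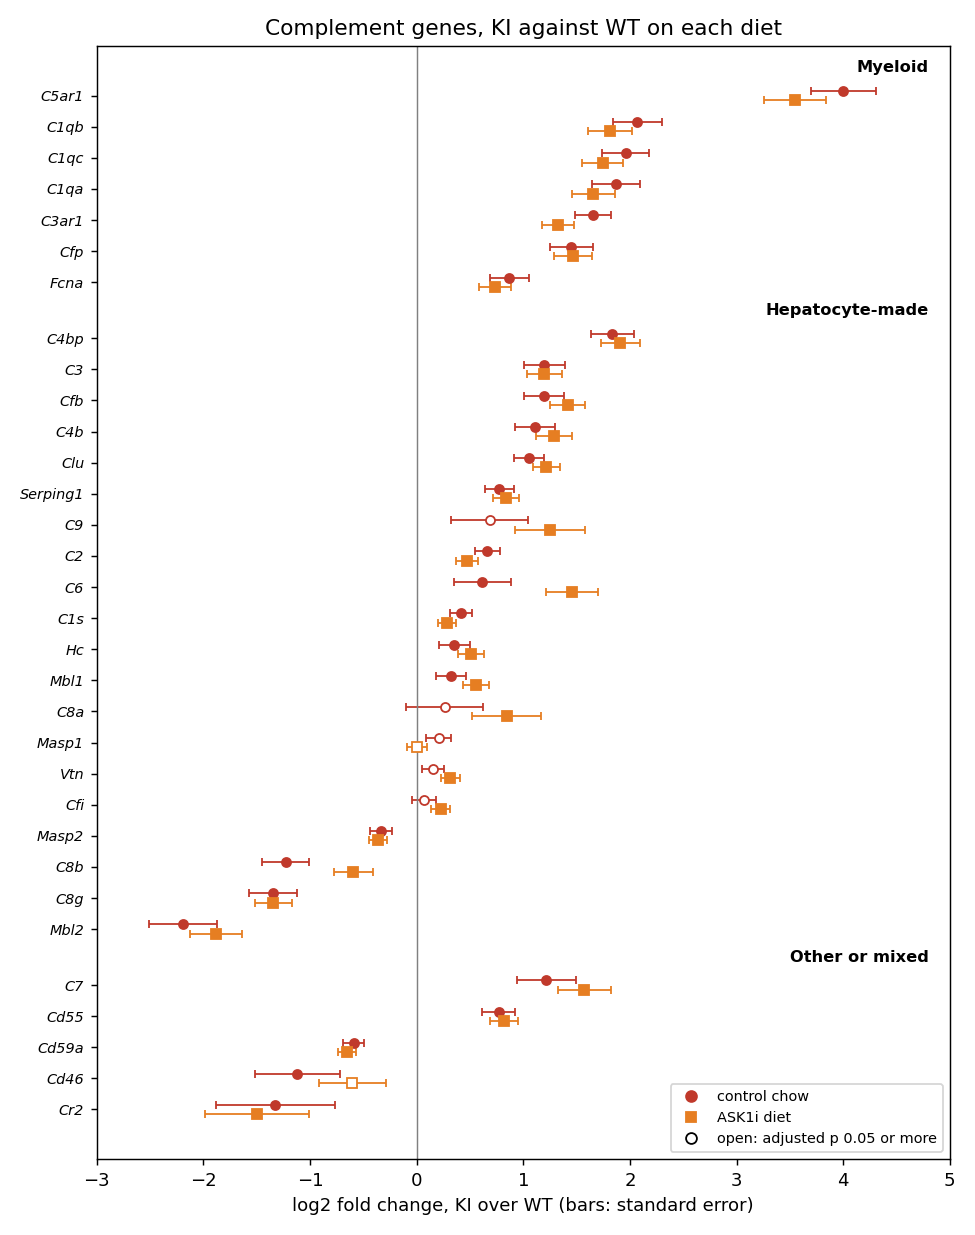
Log2 fold change of KI over WT (x axis) for the 32 tested complement genes other than Fcnb (y axis, grouped by cell source), for control chow (circles) and the ASK1i diet (squares). Bars are the standard error and open symbols have an adjusted p of 0.05 or more. C5ar1 lies farthest to the right, at 4.00 and 3.55, and Mbl2 farthest to the left, at -2.19 and -1.88.

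The chains of C1q, the molecule that recognises antibody and cell debris, rose together in KI livers. C1qb, the B chain, was at 369, 292, 306, 249.9 and 286 CPM in the 5 KI control libraries, against 38.6, 75.7 and 106 CPM (lowest, median and highest, here and below for groups over 5) in WT control. All 5 KI libraries lay above the highest WT library (log2 fold change 2.07, SE 0.23, adjusted p = 2.22e-08). In ASK1i-fed livers, C1qb was at 68.9, 219 and 330.4 CPM in KI and 46.1, 69.0 and 76.2 CPM in WT (log2 fold change 1.81, SE 0.20, adjusted p = 1.67e-08), and the lowest KI value, 68.9 CPM, was the library labelled KI ASK1i replicate 5. C1qa rose by 1.87 (SE 0.23) and C1qc by 1.96 (SE 0.22) on control chow, and by 1.66 (SE 0.20) and 1.74 (SE 0.20) on the ASK1i diet. Here and below, a change or difference given with only its SE or adjusted p is a log2 fold change. The 3 genes lie side by side within 18.7 kb, at chr4:136880144-136898844 (GRCm38). As shares of the summed C1q counts, the A, B and C chains gave 28.6 ± 0.953, 38.3 ± 0.824 and 33.1 ± 0.563% in KI control, against 30.6 ± 0.728, 36.2 ± 0.729 and 33.2 ± 1.06% in WT control (SD, n = 5 and 10).

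**Figure D2:**
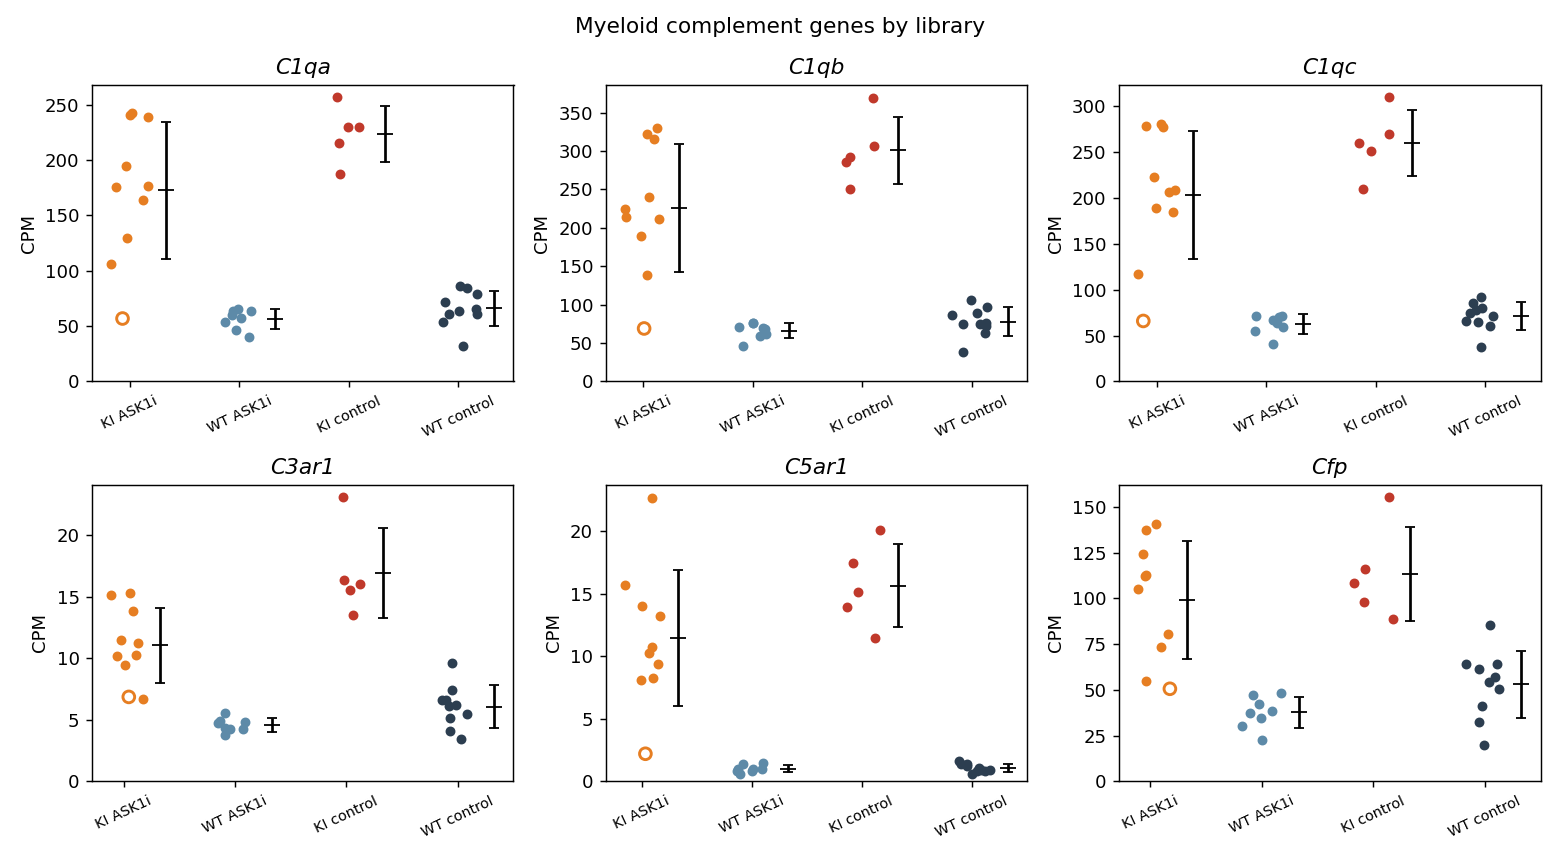
Level in CPM (y axis) of C1qa, C1qb, C1qc, C3ar1, C5ar1 and Cfp in every library, by group (x axis), with mean and SD as bars. The open circle is the library labelled KI ASK1i replicate 5. For each of the 6 genes all 5 KI control libraries lie above the WT control libraries.

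Markers of macrophages moved with C1q. The 8 listed Kupffer cell markers were all higher in KI on either diet, with a summed level of 1644 to 2182 CPM in KI control and 347 to 1087 CPM in WT control, and of 591 to 2241 CPM in KI ASK1i and 438 to 617 CPM in WT ASK1i. All 8 markers of monocyte-derived macrophages were higher too, with 839 to 1022 CPM in KI control and 76.1 to 158 CPM in WT control, and 109.7 to 1480.3 CPM in KI ASK1i and 83.0 to 123 CPM in WT ASK1i. No marker of either list was at 0 throughout a group. In bulk liver RNA, more or fewer cells of a type and more or less RNA per cell cannot be told apart. The summed C1q level was 0.385 ± 0.0339 of the summed Kupffer markers in KI control and 0.303 ± 0.0292 in WT control, and 0.369 ± 0.0424 in KI ASK1i and 0.323 ± 0.0257 in WT ASK1i (SD). Summed C1q itself was 784 ± 104 CPM in KI control and 215 ± 49.7 CPM in WT control. The part of the macrophage markers in the C1q difference was not tested.

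**Figure D3:**
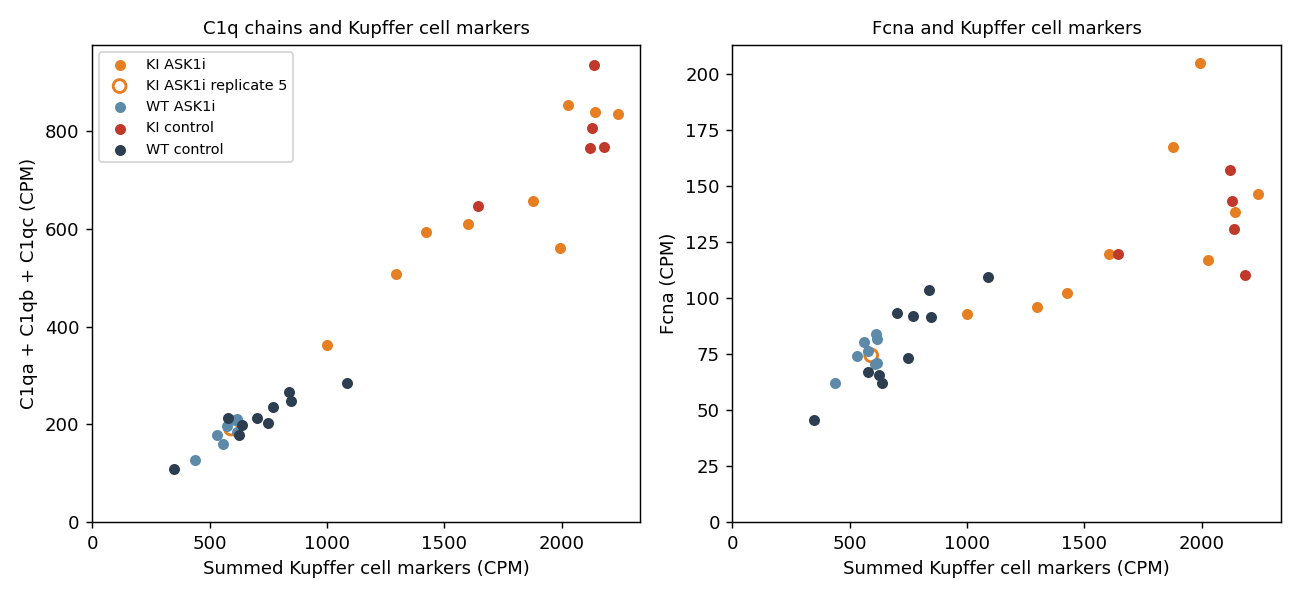
Summed C1qa, C1qb and C1qc level and Fcna level in CPM (y axes) against the summed level of 8 Kupffer cell markers in CPM (x axis), 1 point a library, coloured by group. Summed C1q rises with the markers in both genotypes (mean ratio 0.385 in KI control and 0.303 in WT control), and Fcna spans a narrower range than C1q.

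Of the genes with more than a few counts in both genotypes, C5ar1 had the largest fold difference on either diet. It encodes the receptor for C5a, a fragment that draws neutrophils and macrophages. It was at 20.1, 15.1, 17.5, 11.5 and 13.9 CPM in KI control, against 0.604, 0.986 and 1.58 CPM in WT control (log2 fold change 4.00, SE 0.30, adjusted p = 3.75e-10). It was at 2.19, 10.5 and 22.6 CPM in KI ASK1i and 0.584, 0.955 and 1.49 CPM in WT ASK1i (log2 fold change 3.55, SE 0.29, adjusted p = 4.29e-10), and on either diet every KI library was above every WT library, the library labelled KI ASK1i replicate 5 included. C3ar1, the receptor for C3a, was at 23.1, 13.5, 16.4, 15.6 and 16.1 CPM in KI control and 3.40, 6.16 and 9.64 CPM in WT control (log2 fold change 1.65, SE 0.17, adjusted p = 7.11e-09). Under the ASK1i diet, it was at 6.67, 10.8 and 15.3 CPM in KI and 3.78, 4.54 and 5.56 CPM in WT (log2 fold change 1.33, SE 0.15, adjusted p = 1.50e-08), again without overlap. Neutrophil markers, 10 of 10 higher in KI on either diet and none at 0 throughout a group, moved with C5ar1. Their summed level was 705.32 to 3807 CPM in KI control and 6.29 to 24.1 CPM in WT control, and 10.6 to 4981 CPM in KI ASK1i and 4.34 to 11.6 CPM in WT ASK1i, and their part in the receptor difference was not tested.

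Properdin and the ficolins rose as well. Cfp, which encodes properdin, the stabiliser of the alternative pathway convertase stored in myeloid cells, was at 156, 108, 116, 89.0 and 98.0 CPM in KI control and 19.9, 55.8 and 85.3 CPM in WT control (log2 fold change 1.45, SE 0.20, adjusted p = 8.23e-07). It was at 50.6, 109 and 141 CPM in KI ASK1i and 22.6, 37.8 and 48.4 CPM in WT ASK1i (log2 fold change 1.46, SE 0.18, adjusted p = 5.30e-08), and the groups did not overlap on either diet. Fcna, the mouse ficolin A made by liver macrophages, was at 131, 110.4, 143, 119.7 and 157 CPM in KI control and 45.4, 82.4 and 109 CPM in WT control (log2 fold change 0.87, SE 0.18, adjusted p = 1.83e-04). On the ASK1i diet it was at 74.5, 118 and 205 CPM in KI and 62.1, 75.4 and 84.1 CPM in WT (log2 fold change 0.73, SE 0.15, adjusted p = 1.37e-04). Relative to C1q, Fcna was at 17.0 ± 2.77% of summed C1q in KI control, against 37.5 ± 4.00% in WT control, and was 23.0 ± 8.60% in KI ASK1i and 41.4 ± 6.16% in WT ASK1i.

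Fcnb, the ficolin B that mouse neutrophils and their bone marrow precursors store, was at or near 0 in every WT library. It had 4.48, 9.99, 3.56, 1.06 and 4.72 CPM in KI control, and 942 counts there stood against 3 counts over all 10 WT control libraries, a ratio of levels of 492 (95% interval 168 to 2391, counting error only). In KI ASK1i it had 0, 1.36 and 12.3 CPM and 1044 counts in all, while the 8 WT ASK1i libraries had 0, so that it was at least 258-fold higher against a floor of 3 counts over the WT group. KI ASK1i replicate 2 held 460 of those counts, and without it the bound was 161-fold. Both differences were called (adjusted p = 1.09e-06 and 1.11e-06). Fcnb passed the count filter only through KI libraries, where it was high. The filter thus fixed its direction, and the calls add nothing to the counts above. The library labelled KI ASK1i replicate 5 had 0 counts, and replicate 2 had the highest level, 12.3 CPM.

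Upstream sequence is shown for genes on which this account turns, C3, C4bp and Fcnb, which were higher in KI, and Mbl2, which was lower. Each line gives the 250 bases before the RefSeq start of transcription (GRCm38.p6), 5′ to 3′ on the gene's strand, with motif matches in capitals. The motifs searched, on both strands from 250 before to 50 after the start, were TTGCNNAA for C/EBP, TTCNNNGAA for STAT, GGG and TTCC with any 3 bases between them for NF-kB, and GTTAAT and ATT with any 1 base between them for HNF1.
C3 (chr17:57228137-57228386, minus strand): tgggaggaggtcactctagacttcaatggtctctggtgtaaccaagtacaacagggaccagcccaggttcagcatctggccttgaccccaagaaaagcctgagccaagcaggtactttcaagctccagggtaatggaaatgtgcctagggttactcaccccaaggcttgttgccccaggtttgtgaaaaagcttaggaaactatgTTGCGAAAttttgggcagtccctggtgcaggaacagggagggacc
C4bp (chr1:130661619-130661868, minus strand): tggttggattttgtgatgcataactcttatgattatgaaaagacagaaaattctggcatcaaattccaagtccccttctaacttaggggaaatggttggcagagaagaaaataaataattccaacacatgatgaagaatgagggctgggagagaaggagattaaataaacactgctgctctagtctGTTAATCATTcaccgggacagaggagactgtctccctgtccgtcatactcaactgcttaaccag
Mbl2 (chr19:30232678-30232927, plus strand): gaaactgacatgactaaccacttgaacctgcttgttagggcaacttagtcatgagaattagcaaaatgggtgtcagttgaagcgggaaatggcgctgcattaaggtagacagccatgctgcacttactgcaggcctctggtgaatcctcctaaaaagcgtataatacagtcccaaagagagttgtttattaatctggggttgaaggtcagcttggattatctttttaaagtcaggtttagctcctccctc
Fcnb (chr2:28084879-28085128, minus strand): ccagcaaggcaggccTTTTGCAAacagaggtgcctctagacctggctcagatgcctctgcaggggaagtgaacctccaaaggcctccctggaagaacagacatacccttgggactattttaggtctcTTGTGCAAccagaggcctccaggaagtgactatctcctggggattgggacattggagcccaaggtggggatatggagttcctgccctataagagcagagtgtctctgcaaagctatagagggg
The capitals mark a C/EBP match at -45 in C3 and at -235 and -123 in Fcnb, and an HNF1 match at -64 in C4bp, while Mbl2 held none of the 4 strings. Windows were matched for 26 of the 34 genes, and the 8 others are C1qa, Clu, Serping1, Cfi, C4b, C2, Masp1 and Cfb. The C/EBP string was in 4 of 26 (15.4%) and in 10.8% of all 32851 windows, the STAT string in 4 of 26 (15.4%) and in 8.3%, and the NF-kB string in 1 of 26 (3.85%) and in 5.56%. The HNF1 string was in 2 of 26 (7.69%), C4bp and Hc, and in 0.399% of all windows. A gene with several windows (C1s and C8g) was counted once if any of them held the string, while the share over all windows counts each window. A match describes the letters and is not shown to be a bound site.

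The central components made by hepatocytes rose. C3, on which all pathways converge, was at 36187, 25253, 24313, 34305 and 29506 CPM in KI control, against 9291, 14333 and 16405 CPM in WT control (log2 fold change 1.20, SE 0.19, adjusted p = 5.21e-06). With ASK1i in the diet, C3 was at 10689, 30996 and 34666 CPM in KI and 9969.5, 11989.5 and 16406 CPM in WT (log2 fold change 1.20, SE 0.17, adjusted p = 5.05e-07). All 5 KI control libraries were above WT control, and 9 of 10 KI ASK1i libraries were above WT ASK1i, with the library labelled KI ASK1i replicate 5 at 10689 CPM. C3 alone took 3.21 ± 0.490% of all counts in KI control and 1.33 ± 0.226% in WT control. C4b, the classical and lectin pathway substrate, was at 3213, 2370.0, 2311, 3070.3 and 2505 CPM in KI control and 888, 1158 and 1537 CPM in WT control (log2 fold change 1.11, SE 0.19, adjusted p = 1.35e-05), and changed by 1.29 (SE 0.17) on the ASK1i diet. C4b counts were not whole in any of the 33 libraries. Reads shared with its near-identical copy C4a are divided by estimate, so its level is uncertain. C2, which with C4b forms the convertase, and C1s, the protease of the C1 complex, rose as well. C2 was at 179, 172, 192, 191 and 149 CPM in KI control and 90.4, 98.4 and 143 CPM in WT control (log2 fold change 0.66, SE 0.12, adjusted p = 2.87e-05). C1s was at 694, 633, 632, 720.0 and 737 CPM in KI control and 389.9, 478 and 595 CPM in WT control (log2 fold change 0.41, SE 0.10, adjusted p = 9.62e-04), and neither was called with the L code as a term (log2 fold change 0.25, adjusted p = 0.214, and 0.15, adjusted p = 0.467).

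**Figure D4:**
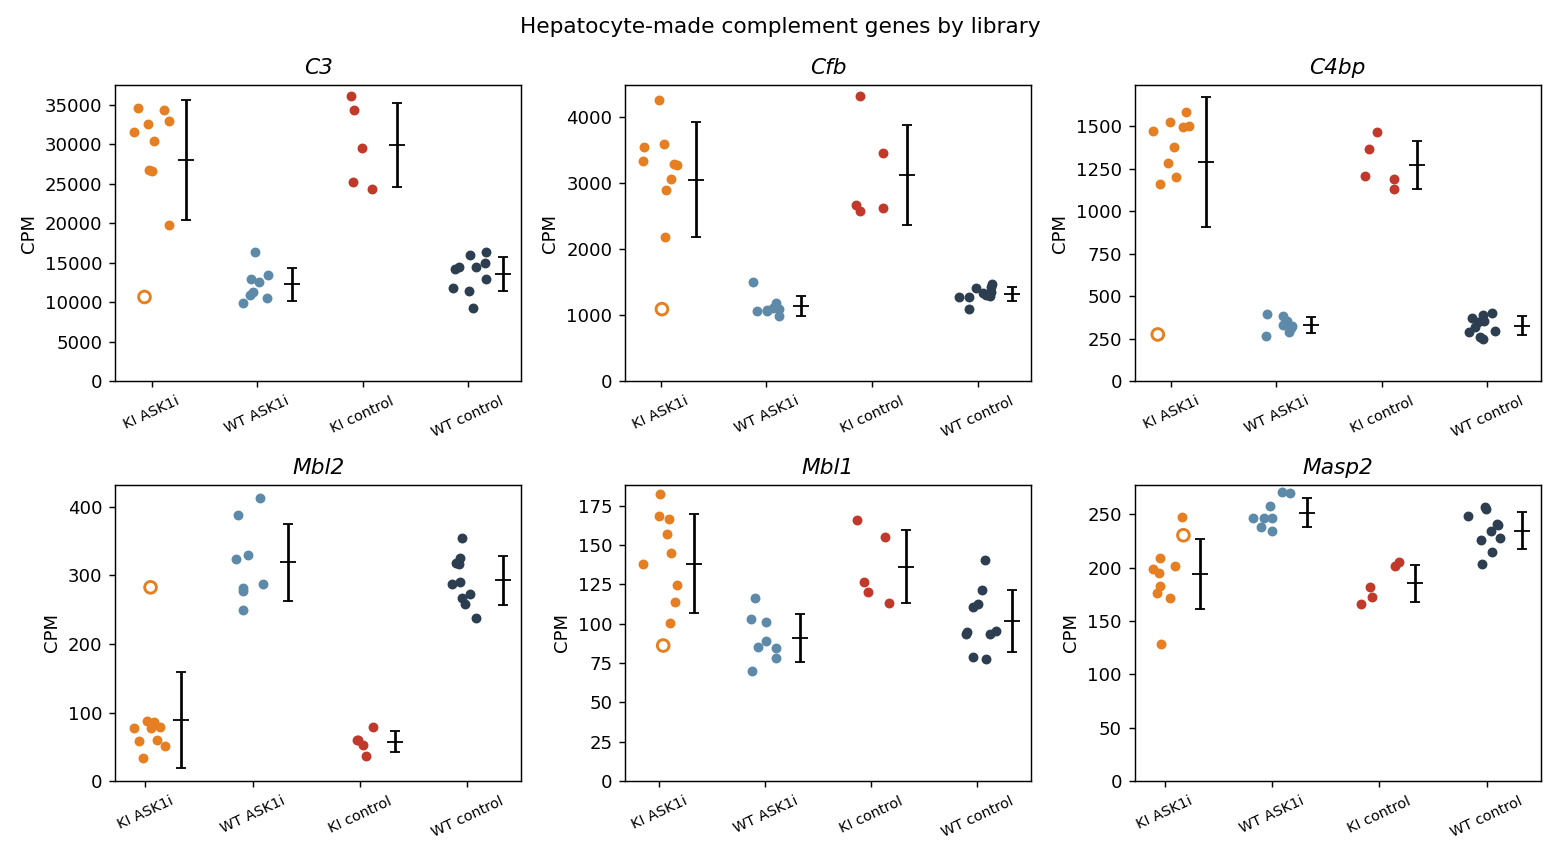
Level in CPM (y axis) of C3, Cfb, C4bp, Mbl2, Mbl1 and Masp2 in every library, by group (x axis), with mean and SD as bars. The open circle is the library labelled KI ASK1i replicate 5. C3, Cfb and C4bp are higher and Mbl2 is lower in all 5 KI control libraries than in any WT control library, and the library labelled KI ASK1i replicate 5 lies within the WT ASK1i range for these 4 genes.

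In the alternative pathway, Cfb, which encodes the catalytic subunit of the convertase, was at 2623, 2576, 3460.3, 4322 and 2671 CPM in KI control and 1091, 1324 and 1477 CPM in WT control (log2 fold change 1.20, SE 0.19, adjusted p = 4.05e-06). It was at 1095, 3288 and 4254 CPM in KI ASK1i and 997, 1091 and 1505 CPM in WT ASK1i (log2 fold change 1.42, SE 0.16, adjusted p = 2.21e-08), and the library labelled KI ASK1i replicate 5 was the only KI library within the WT range. Cfb and C2 lie 86 bases apart on chromosome 17. The libraries were made with a kit that keeps strand, though how strand was used in counting is not stated. Cfd, which encodes factor D, the adipocyte protease that cleaves factor B, had 0 counts over the 5 KI control libraries and 36 over the 10 WT control libraries, so that its level was at least 7.66-fold lower in KI against a floor of 3 counts over the KI group. WT control replicates 1P and 2P held 25 of the 36 counts, and without these 2 libraries the bound was 2.97-fold. In ASK1i-fed livers, it had 3 counts in KI and 6 in WT (ratio 0.371, 95% interval 0.0600 to 1.74, counting error only). The adipocyte markers in the table were themselves nearly absent, at a summed 0 to 0.111 CPM in KI control and 0 to 0.198 CPM in WT control, with Retn at 0 in both WT groups.

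The lectin pathway genes split. Mbl2, mannose-binding lectin C, was the complement gene that fell most on either diet, at 59.7, 36.9, 59.8, 52.7 and 78.9 CPM in KI control, against 238, 289 and 354 CPM in WT control (log2 fold change -2.19, SE 0.32, adjusted p = 1.37e-06). Under the ASK1i diet, it was at 34.5, 76.9 and 283 CPM in KI and 249, 306 and 413 CPM in WT (log2 fold change -1.88, SE 0.24, adjusted p = 1.53e-07). The KI control and WT control libraries did not overlap, and with ASK1i the only overlapping library was the one labelled KI ASK1i replicate 5, at 283 CPM. Mbl1, mannose-binding lectin A, which binds the same kind of sugars, did the opposite. It was at 113, 119.9, 127, 155 and 166 CPM in KI control and 77.7, 94.9 and 141 CPM in WT control (log2 fold change 0.33, SE 0.14, adjusted p = 0.0475), a call lost without any 1 of KI control 1, 3, 4 and 1P, or WT control 2, 3, 4, 5, 7 and 2P (adjusted p up to 0.0861). On the ASK1i diet Mbl1 was at 86.2, 142 and 183 CPM in KI and 69.7, 87.1 and 117 CPM in WT (log2 fold change 0.56, SE 0.12, adjusted p = 1.95e-04). Masp2, the lectin-associated protease that cleaves C4 and C2, fell to 201, 166, 173, 205 and 182 CPM in KI control, against 204, 237 and 257 CPM in WT control (log2 fold change -0.33, SE 0.10, adjusted p = 0.00715), and by 0.37 on the log2 scale on the ASK1i diet. Masp1, which activates Masp2, did not pass the test, at 0.20 (SE 0.11) on control chow, where it passed without KI ASK1i 6 (adjusted p down to 0.0371), and 0.00 (SE 0.09) on the ASK1i diet. With Fcna and Fcnb counted, 3 of the 6 lectin pathway genes were higher, 2 lower and 1 not called on either diet. Fcnb is among the 3, though it passed the count filter only through KI libraries. Of all tested genes, 27.8% were higher and 28.9% lower on control chow, and 30.3% and 28.8% on the ASK1i diet.

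Among the terminal components, the chains of C8 parted. C8 joins the complex of C5b, C6 and C7 in the membrane attack complex and is built of the products of C8a, C8b and C8g. C8g, the gamma chain, was at 77.3, 126, 156, 149.6 and 127 CPM in KI control and 216, 312 and 389 CPM in WT control (log2 fold change -1.35, SE 0.22, adjusted p = 9.63e-06). With ASK1i in the diet, it was at 77.2, 105 and 264 CPM in KI and 248, 306 and 378 CPM in WT (log2 fold change -1.34, SE 0.17, adjusted p = 1.46e-07), where 9 of 10 KI libraries lay below every WT library and the library labelled KI ASK1i replicate 5 did not. C8b, the beta chain, was at 121, 117, 113, 109 and 146 CPM in KI control, below all of the 159.8, 212 and 402 CPM in WT control (log2 fold change -1.23, SE 0.22, adjusted p = 3.08e-05). In ASK1i-fed livers, it had 54.8, 122 and 159 CPM in KI and 106, 174 and 279 CPM in WT (log2 fold change -0.59, SE 0.18, adjusted p = 0.00597), and within code L1 it was 0.07 (SE 0.16, adjusted p = 0.75). C8a, the alpha chain, was at 409, 443, 346, 497 and 424 CPM in KI control, inside the 111, 234 and 706.03 CPM of WT control (log2 fold change 0.26, SE 0.36, adjusted p = 0.555), and it rose by 0.84 (adjusted p = 0.0268) on the ASK1i diet, a call lost without any 1 of KI ASK1i 3 and 4, or WT ASK1i 1P and 2P (adjusted p up to 0.105). The ratio of C8a to C8b counts was 3.53 ± 0.661 in KI control and 1.17 ± 0.300 in WT control, and 2.60 ± 1.12 in KI ASK1i and 0.951 ± 0.200 in WT ASK1i (SD, n = 5, 10, 10 and 8). The pair are neighbours on chromosome 4, 11.1 kb apart.

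C6, C7, C9 and Hc, the mouse gene for C5, were higher in KI where they passed the test. C6 was at 97.3, 135, 141, 121 and 194 CPM in KI control, against 30.2, 43.7 and 186 CPM in WT control (log2 fold change 0.62, SE 0.27, adjusted p = 0.0495). The call was lost without any 1 of KI ASK1i 2, KI control 1, 2, 3 and 1P, WT ASK1i 3, 4 and 1P, or WT control 1, 2, 3, 4, 5, 6, 1P and 2P (adjusted p up to 0.216). Under the ASK1i diet, C6 was at 32.0, 116 and 139.8 CPM in KI and 21.8, 29.1 and 88.8 CPM in WT (log2 fold change 1.45, SE 0.24, adjusted p = 8.98e-06), with 9 of 10 KI libraries above every WT library. C9, the pore-forming component, was at 163, 227, 181, 211 and 329 CPM in KI control and 33.6, 69.9 and 278 CPM in WT control (log2 fold change 0.68, SE 0.36, adjusted p = 0.104), which passed without WT ASK1i 2, or WT control 8 (adjusted p down to 0.0276). On the ASK1i diet C9 was at 48.1, 149 and 200.1 CPM in KI and 16.0, 46.8 and 165 CPM in WT (log2 fold change 1.25, SE 0.33, adjusted p = 0.00158). The high end of the WT control range came from males for both genes. When sex was fitted within each genotype, the control chow difference was that between females, and KI control holds 1 female. It was 1.16 (SE 0.31, adjusted p = 0.00353) for C6 and 1.43 (SE 0.42, adjusted p = 0.00692) for C9. That is not the same quantity as the difference over both sexes given above. Hc rose by 0.35 (adjusted p = 0.0349) on control chow, a call lost without any 1 of KI control 1 and 4, or WT control 2 (adjusted p up to 0.101), and by 0.51 (adjusted p = 6.54e-04) on the ASK1i diet. C7, which is low in liver, was at 3.18, 3.55, 3.26, 3.37 and 2.70 CPM in KI control and 0.910, 1.23 and 1.89 CPM in WT control (log2 fold change 1.22, SE 0.28, adjusted p = 4.52e-04), and changed by 1.57 (SE 0.25) on the ASK1i diet. In all, 3 of the 7 terminal genes were higher and 2 lower in KI on control chow, and 5 were higher and 2 lower on the ASK1i diet. Of all tested genes, 27.8% were higher and 28.9% lower on control chow, and 30.3% and 28.8% on the ASK1i diet.

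Soluble regulators rose or did not pass the test. C4bp, which encodes the chain of C4b-binding protein that holds C4b for cleavage, was at 1128, 1204, 1189, 1362 and 1466 CPM in KI control, against 248, 334 and 401 CPM in WT control (log2 fold change 1.84, SE 0.20, adjusted p = 1.71e-08). With ASK1i in the diet, it was at 276, 1424 and 1581 CPM in KI and 265, 328 and 397 CPM in WT (log2 fold change 1.91, SE 0.18, adjusted p = 1.52e-09), and the library labelled KI ASK1i replicate 5, at 276 CPM, was the only KI library that overlapped WT. Serping1, the C1 inhibitor, was at 1384, 1041, 1042, 1492 and 1333 CPM in KI control and 617, 738 and 839.9 CPM in WT control (log2 fold change 0.78, SE 0.14, adjusted p = 2.60e-05), and changed by 0.84 (SE 0.12) on the ASK1i diet. Clu encodes clusterin, which blocks insertion of the terminal complex. It was at 1815, 1726, 2082, 2308 and 2054 CPM in KI control and 700.3, 860.4 and 1149 CPM in WT control (log2 fold change 1.06, SE 0.14, adjusted p = 3.46e-07), and changed by 1.22 (SE 0.12) on the ASK1i diet. Vtn, vitronectin, with a like role, differed by 0.15 (adjusted p = 0.216) on control chow and 0.32 (adjusted p = 0.00300) on the ASK1i diet. Cfi, the protease factor I that inactivates C3b and C4b, differed by 0.07 (adjusted p = 0.622) on control chow and by 0.22 (adjusted p = 0.0376) on the ASK1i diet, the second a call lost without any 1 of WT ASK1i 2, 3, 4 and 1P (adjusted p up to 0.0739).

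The membrane regulators went in both directions. Cd55, decay-accelerating factor, which takes convertases apart, was at 25.9, 41.3, 35.8, 34.5 and 48.5 CPM in KI control and 16.7, 22.0 and 27.0 CPM in WT control (log2 fold change 0.77, SE 0.16, adjusted p = 1.32e-04), and changed by 0.82 (SE 0.13) on the ASK1i diet. Cd59a, which stops C9 from completing the pore, was at 48.7, 44.9, 46.5, 49.2 and 51.5 CPM in KI control and 61.2, 73.8 and 84.9 CPM in WT control (log2 fold change -0.59, SE 0.10, adjusted p = 1.32e-05). It was at 40.1, 49.1 and 66.8 CPM in KI ASK1i and 71.5, 75.4 and 88.4 CPM in WT ASK1i (log2 fold change -0.65, SE 0.08, adjusted p = 7.49e-08), and every KI library was below every WT library on either diet, the library labelled KI ASK1i replicate 5 included. Cd59a counts were not whole in 30 of 33 libraries and Cd55 counts in 7, so reads shared with near copies make both levels uncertain. Cd46, which in mice is made mainly in the testis, was under 1 CPM in all 33 libraries, at 0.193, 0.193, 0.231, 0.111 and 0.150 CPM in KI control and 0.160, 0.282 and 0.944 CPM in WT control (log2 fold change -1.12, SE 0.40, adjusted p = 0.0163). In ASK1i-fed livers, Cd46 differed by -0.60 (adjusted p = 0.0974) and was called without KI ASK1i 3, or WT ASK1i 6 (adjusted p down to 0.0280). Cr2, complement receptor 2 of B cells and follicular dendritic cells, was at 0.276, 0.362, 0.0513, 0.111 and 0.300 CPM in KI control and 0.270, 0.537 and 2.08 CPM in WT control (log2 fold change -1.32, SE 0.56, adjusted p = 0.0419), and at 0, 0.0999 and 0.244 CPM in KI ASK1i and 0.192, 0.371 and 0.498 CPM in WT ASK1i (log2 fold change -1.50, SE 0.49, adjusted p = 0.00794). The control chow call for Cd46 was lost without any 1 of KI control 4, or WT control 8 (adjusted p up to 0.0937), and that for Cr2 without any 1 of KI ASK1i 1 and 4, KI control 1, 3 and 4, WT ASK1i 5, 6 and 7, or WT control 1, 4 and 1P (adjusted p up to 0.115). B cell markers, 5 of 6 lower in KI on either diet and none at 0 throughout a group, moved with Cr2, at a summed 3.74 to 11.3 CPM in KI control and 5.75 to 30.5 CPM in WT control, and 1.68 to 9.78 CPM in KI ASK1i and 6.72 to 15.8 CPM in WT ASK1i. Of 3 follicular dendritic cell markers, 2 could be tested, and 1 was higher and 1 lower on control chow, with Madcam1 at 0 in both WT groups. Cr2 and Cd46 passed the count filter mainly through WT libraries, where they were higher, and their calls carry that limit. The part of B cells and follicular dendritic cells in the Cr2 difference was not tested.

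By source, the 8 genes of myeloid cells (C1qa, C1qb, C1qc, C3ar1, C5ar1, Cfp, Fcna and Fcnb) were all higher in KI on either diet, with median log2 fold changes of 1.92 (control chow) and 1.70 (ASK1i diet). Fcnb passed the count filter only through KI libraries, so its direction was fixed by the filter. The difference between sources was not tested. Of the 20 genes made by hepatocytes, 11 were higher, 4 lower and 5 not called on control chow (median 0.38), and 15 were higher, 4 lower and 1 not called on the ASK1i diet (median 0.53). Of all tested genes, 27.8% were higher and 28.9% lower on control chow, and 30.3% and 28.8% on the ASK1i diet. The other 5 tested genes, of mixed or other source, had medians of -0.59 and -0.60. The same medians over all tested genes were -0.03 and 0.01. General hepatocyte markers moved the other way from C3 and C4bp. Of 10, 1 was higher and 7 lower in KI on control chow, and 2 higher and 5 lower on the ASK1i diet, with none at 0. Their summed level was 49764 to 73876 CPM in KI control and 123207 to 145817 CPM in WT control, and 50414 to 122569 CPM in KI ASK1i and 118976 to 157614 CPM in WT ASK1i. Their part in the fall of Mbl2, C8b, C8g and Masp2 was not tested. Of stellate and portal fibroblast markers, 4 of 6 were higher on control chow and 3 higher and 1 lower on the ASK1i diet, and of endothelial markers 3 of 5 were higher and 1 lower, and 2 higher and 1 lower. Those counts are to be read against the 56.7% and 59.1% of all tested genes called on the 2 diets.

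The order of the genes by level was led by the same names in both genotypes. Per kilobase of annotated transcript, C3, Vtn, Cfb, Clu and Serping1 ranked 1 to 5 in each of the 4 groups. C3 reached 5824 ± 1029.8 CPM per kb in KI control and 2647 ± 428 in WT control, and Vtn 1261 ± 181 and 1114 ± 103 (SD, n = 5 and 10). Cfb at 1145 ± 278 and Clu at 1103 ± 128 CPM per kb in KI control overlapped within their spread, as they did in WT control at 485 ± 38.7 and 479 ± 70.3. Mbl2 ranked 23 in KI control and 8 in WT control, C8g 14 and 7, C4bp 7 and 14, and C1qb 9 and 16. The 34 genes held 5.14 ± 0.575% of all counts in KI control and 2.38 ± 0.227% in WT control, and 4.48 ± 0.970% in KI ASK1i and 2.06 ± 0.252% in WT ASK1i.

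A wider list of 39 related genes, 33 of them in the matrix and 29 tested, was read the same way. On control chow 16 were higher and 9 lower in KI, and on the ASK1i diet 14 were higher and 10 lower, against the 56.7% and 59.1% of all tested genes given above. The called genes with the smallest p on control chow were Itgam, Procr, Itgb2 and C4bp-ps1. Itgam, the alpha chain of complement receptor 3 on myeloid cells, averaged 66.6 ± 12.5 CPM in KI control and 3.10 ± 0.988 CPM in WT control, a log2 fold change of 4.50 (SE 0.40, adjusted p = 1.93e-09), and 4.34 (SE 0.39, adjusted p = 9.26e-10) on the ASK1i diet. Itgb2, its beta chain, changed by 2.64 (SE 0.28, adjusted p = 1.21e-08) and 2.58 (SE 0.25, adjusted p = 2.90e-09). Procr, the receptor for protein C, changed by 2.47 (SE 0.26, adjusted p = 8.92e-09) and 2.50 (SE 0.24, adjusted p = 1.25e-09). C4bp-ps1, a pseudogene of C4bp, changed by 2.99 (SE 0.35, adjusted p = 4.49e-08) on control chow. C4bp counts were whole in all 33 libraries, so no reads divided between C4bp and its pseudogene were seen. Under the ASK1i diet, Cpb2, a carboxypeptidase that trims C3a and C5a, took its place among the smallest p, at 1197 ± 369.6 CPM in KI and 417 ± 43.8 CPM in WT, with a log2 fold change of 1.44 (SE 0.15, adjusted p = 7.57e-09).

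Within KI mice the ASK1i diet left no complement gene past the threshold. By edgeR's quasi-likelihood test 0 of 33 were called, where 0.0536% of all tested genes were, and DESeq2 and limma-voom also called 0. Without the library labelled KI ASK1i replicate 5 the count was 0. At an unadjusted p under 0.05 there were 2, C3ar1 and C1s, against 10.3% of all tested genes. C3ar1 was at 6.67, 10.8 and 15.3 CPM in KI ASK1i and 23.1, 13.5, 16.4, 15.6 and 16.1 CPM in KI control, a log2 fold change, ASK1i over control, of -0.63 (SE 0.16, adjusted p = 0.28). C1s was at 403, 581 and 627 CPM in KI ASK1i and 694, 633, 632, 720.0 and 737 CPM in KI control (log2 fold change -0.32, SE 0.10, adjusted p = 0.365), and it was the one gene of the 33 whose KI ASK1i libraries were all below the KI control libraries, where 0.0937% of all tested genes had groups that did not overlap. C1qb differed by -0.42 (SE 0.22), C5ar1 by -0.47 (SE 0.28), C3 by -0.11 (SE 0.19) and Mbl2 by 0.50 (SE 0.29) between the diets. The median over the 33 was -0.14, against 0.03 over all tested genes. A p that misses the threshold does not show that the diet left these genes alone.

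Within WT mice 1 of 33 was called, on the low side, where 1.4% of all tested genes were, 1.13% higher and 0.268% lower, and 10 were at an unadjusted p under 0.05, against 13.9% of all tested genes. The called gene was C6, at 21.8, 29.1 and 88.8 CPM in WT ASK1i and 30.2, 43.7 and 186 CPM in WT control (log2 fold change -0.97, SE 0.24, adjusted p = 0.0321). The groups overlapped, and the call was lost without any 1 of WT ASK1i 4, 7, 1P and 2P, or WT control 7, 8 and 1P (adjusted p up to 0.105). DESeq2, which called 2.44% of all tested genes, also called C8b (-0.61, adjusted p = 0.0341) and C9 (-1.08, adjusted p = 0.0224). Within code L6, which holds 4 libraries of each WT diet, C6 was -1.27 (SE 0.40, adjusted p = 0.628). The test of the difference between the KI and WT diet effects called 0 of 33 and 0 of all tested genes with edgeR, and DESeq2 called 0 of 33 as well. At an unadjusted p under 0.05 it found 2, with a log2 effect in KI minus that in WT of 0.84 (SE 0.37) for C6 and 0.64 (SE 0.29) for C8b, where 8.38% of all tested genes reached that level.

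Several terminal components differed by sex in WT livers. Fitted within genotype, 6 of 33 genes differed between WT males and WT females, where 1.85% of all tested genes did, 0.951% higher and 0.904% lower in males. C6, C8a, C8b, C9 and Hc were higher and Cfp was lower in males. C6 was at 29.3, 88.8 and 186 CPM in the 7 WT males and 21.8, 32.7 and 66.4 CPM in the 11 WT females (log2 fold change 1.39, SE 0.21, adjusted p = 2.47e-04). C9 was at 39.1, 165 and 278 CPM in males and 16.0, 51.1 and 131 CPM in females (log2 fold change 1.39, SE 0.28, adjusted p = 0.00763). C8a changed by 1.23 (adjusted p = 0.0231), C8b by 0.80 (adjusted p = 0.00596), Hc by 0.46 (adjusted p = 0.0311) and Cfp by -0.73 (adjusted p = 0.0329), males over females. The edgeR count in WT was 2 without WT control replicate 8, a male, where 0.643% of all tested genes were called. It was 8 without the library labelled KI ASK1i replicate 5, where 3.87% were, and 2 with the L code as a term, where 0.482% were. None of the 6 genes kept its call in every alternative run. In KI livers 0 of 33 were called by edgeR and by DESeq2, where edgeR called 0.187% of all tested genes, 0.0737% higher and 0.114% lower in males, and 3 were at an unadjusted p under 0.05, against 7.36% of all tested genes. KI males and females had 132 ± 26.8 and 98.6 ± 35.6 CPM of C6, and 179 ± 78.5 and 145 ± 37.0 CPM of C9 (SD, n = 9 and 6). The difference of the sex effect between KI and WT was called for 0 of 33 by edgeR and by DESeq2, where edgeR called 0.0067% of all tested genes, with 6 at an unadjusted p under 0.05, against 8.81% of all tested genes, so a difference between the genotypes is not shown. C8b had the smallest p, with a log2 sex effect in KI minus that in WT of -0.82 (SE 0.24, adjusted p = 0.261).

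**Figure D5:**
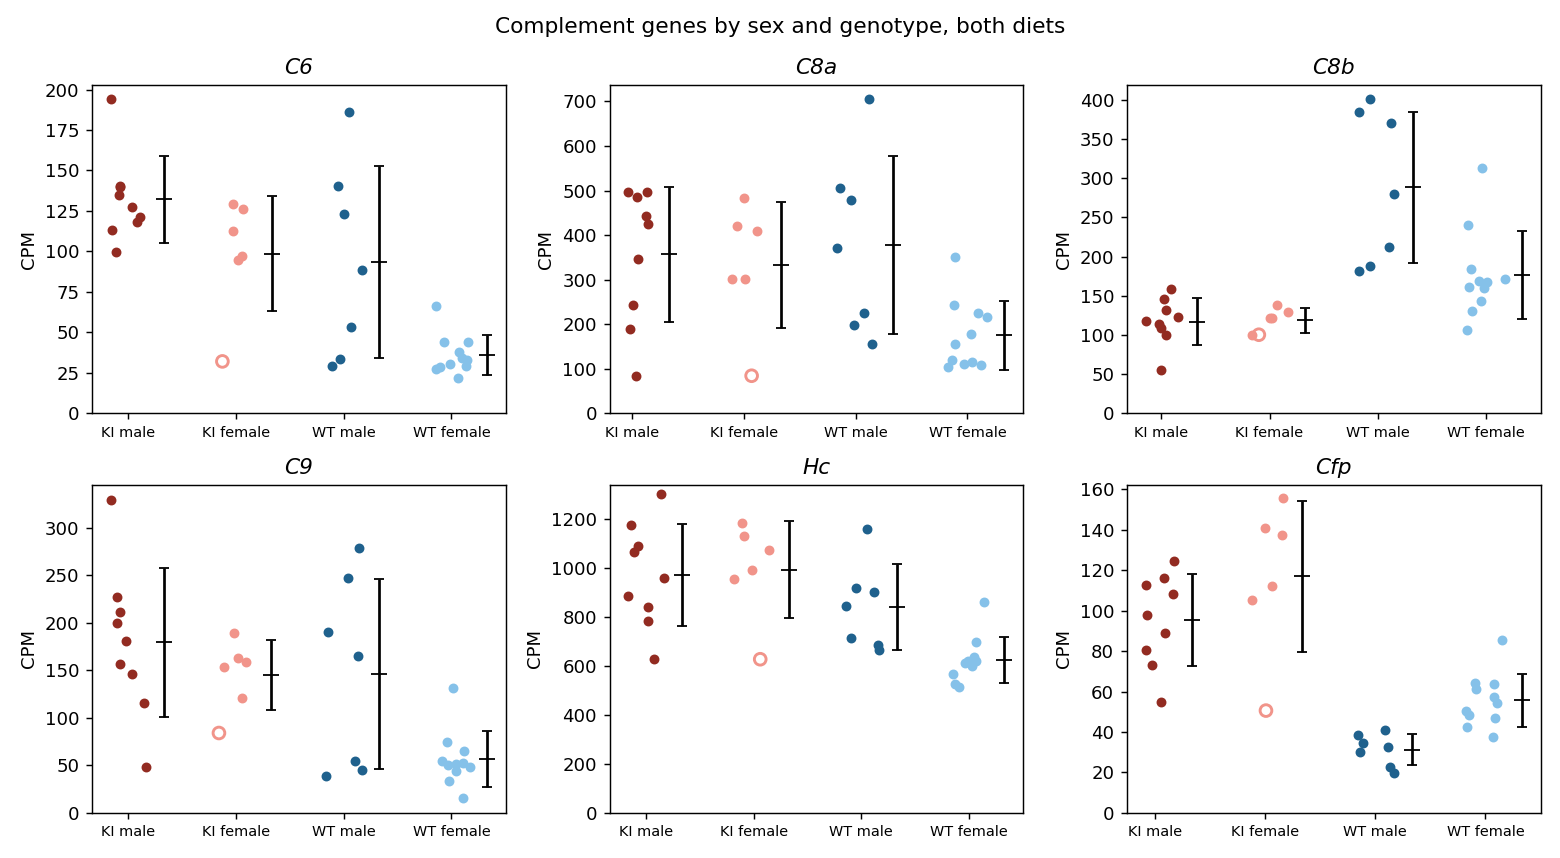
Level in CPM (y axis) of C6, C8a, C8b, C9, Hc and Cfp in KI males, KI females, WT males and WT females (x axis), 1 point a library, with mean and SD as bars. The WT medians are 88.8 CPM in males and 32.7 CPM in females for C6, and KI males and females overlap for all 6 genes.

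WT males, and for C6 WT females as well, lay apart by diet in these terminal genes. C6 was at 88.8, 53.1, 33.5 and 29.3 CPM in the 4 WT ASK1i males and 186, 140.5 and 123 CPM in the 3 WT control males. C9 was at 165, 54.8, 39.1 and 45.4 and 278, 247 and 190.3 CPM in the same libraries, C8a at 370.3, 225, 197 and 156 and 507, 706.03 and 479 CPM, and C8b at 279, 212, 181 and 188 and 402, 385 and 370.4 CPM. For each of these 4 genes the 3 control males were above the 4 ASK1i males. Hc, C8g and C1s parted in the same way, so the separation was not particular to the 4 genes listed. The share of all tested genes that part in this way by diet within a sex was not computed. Among WT females C6 was at 27.4, 28.3, 29.0 and 21.8 CPM on the ASK1i diet, against 30.2, 37.7 and 66.4 CPM on control chow, and C9 at 16.0, 50.2, 48.2 and 44.5 CPM, against 33.6, 55.0 and 131 CPM. In the same females C8a was at 115, 119, 103 and 107 CPM, against 111, 217 and 351 CPM. C8b was at 143, 167, 106 and 130 CPM, against 159.8, 172 and 313 CPM. For C6 the ASK1i females were all below the control females, and for C9, C8a and C8b they overlapped. This pattern was noticed in the values and was not tested, and 2 of the 3 control males carry titles marked P while none of the 4 ASK1i males does. Of the wider list, C4a and Susd4 also differed by sex in WT, by 2.34 (SE 0.43, adjusted p = 0.00290) and 2.40 (SE 0.46, adjusted p = 0.00409), and C4a differed in KI by 2.30 (SE 0.49, adjusted p = 0.0356). C4a, known in mice as sex-limited protein, shares reads with C4b and is uncertain.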

How the data were processed

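PolyA RNA from fresh frozen liver was sequenced with a stranded mRNA kit, per the labels' protocols. The authors deposited RSEM expected counts per gene, which need not be whole. The submitters' processing notes name CASAVA 1.8.2, STAR 2.4, RSEM 1.2.14 and mm10. From 91.4% to 93.7% of a library's values, zeros included, were whole, and all were rounded. Reads shared by near-identical genes are split by RSEM's estimate, and that can move the levels of C4b, Cd59a, C1s and Cd55. The 34 genes and all lists were chosen with earlier results of these data known.

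Genes were kept by edgeR's filterByExpr over the 4 groups. Fcnb passed it only through KI libraries, and Cr2 and Cd46 mainly through WT libraries. The test was edgeR 4.0.16 in R 4.3.3, quasi-likelihood, robust, with TMM scaling, a prior count of 0.125 and Benjamini-Hochberg adjustment over all tested genes. The model held group, sex and title set (numbered or marked P) over all 33 libraries, and sex within genotype for the sex comparisons. An adjusted p under 0.05 was a call. SE stands for the standard error of a log2 fold change. CPM and ratios were computed from the rounded counts. Alternatives were DESeq2 1.42.0, limma-voom 3.58.1, other scaling and filters, other terms, and leaving out each library. The fitting was tested on simulated data. All 34 complement genes are described, with Nlrp3 as the targeted gene and up to 4 called genes with the smallest p in each comparison from the wider list. Marker lists are given as sums. Intervals and floors, at 95% and 3 counts, cover counting error only. No 2 libraries of a group agreed within sampling noise, the sex label matched sex-linked genes in 33 of 33, and 0 sample columns were unused.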

Additional observations from a re-analysis of the deposited data

Results flagged for a closer look

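Each of the 4 groups, of 5, 8, 10 and 10 libraries, was checked for a single library far from the others (Dixon's test), and 16 of 136 tests met that mark, in 13 genes. Chance flags about 1 in 20 groups. The library labelled KI ASK1i replicate 5 accounted for 5. In that library C4b was the lowest of its group at 833 CPM, with the next at 1958 CPM. C6 was lowest at 32.0 CPM with the next at 94.5 CPM, and C4bp was lowest at 276 CPM with the next at 1159.5 CPM. Mbl2 and C8g were the highest there, at 283 and 264 CPM, with the next at 88.3 and 146 CPM. For these 5 genes the library lay on the WT side of its group, as it did on the first principal component of all tested genes.

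WT ASK1i replicate 2, a male, was the highest of its group for 4 genes. C6 was at 88.8 CPM there (next 53.1), C8a at 370.3 CPM (next 225), C9 at 165 CPM (next 54.8) and Clu at 902 CPM (next 746). WT ASK1i replicate 7, a male, was the highest for C2 at 138 CPM (next 112) and for Cfb at 1505 CPM (next 1193).

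Cfb was lowest in WT control replicate 2P, at 1091 CPM. Fcnb was highest in KI ASK1i replicate 2, at 12.3 CPM. The other 3 rest on few counts. Cd46 had 18 counts in KI ASK1i replicate 3 (0.533 CPM) and 28 in WT control replicate 8 (0.944 CPM), and Cr2 had 59 in WT control replicate 4 (2.08 CPM). No gene met the mark for effects that differ between genotypes or sexes.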

How the results depend on the processing

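Of the 28 complement genes called between KI and WT on control chow, 19 kept their direction and call in every alternative and with each library left out, and of the 31 on the ASK1i diet 23 did. The exceptions were C1s, C2, C6, C7, Cd46, Cr2, Hc, Masp2 and Mbl1 on control chow, and C1s, C8a, C8b, Cfi, Cr2, Fcna, Masp2 and Vtn with ASK1i. The counts were 24 to 29 and 29 to 32 with 1 library left out (24 without KI control replicate 1 or 4), 19 and 28 with the L code as a term, and 24 and 27 with the numbered titles alone. With the L code 34.2% of all tested genes were called on control chow, against 56.7% in the main fit. For most other fits that share is not given here, so a moved count does not set these genes apart from all genes. The direction of C8b on the ASK1i diet reversed within code L1, to 0.0747 (adjusted p = 0.75), where 25 were called, and the cause was not tested. The fit within L1 held no sex term, and the WT libraries there are all female. With sex fitted within genotype, the genotype difference is that between females. In that fit C8b on the ASK1i diet was -0.18 (SE 0.20, adjusted p = 0.49) and C9 on control chow was 1.43 (SE 0.42, adjusted p = 0.00692).

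The WT diet count of 1 was 0 without the title set, 0 without sex, 0 in the numbered titles alone, 0 within code L6, 3 in DESeq2, 3 with sex within genotype and 9 when only the groups compared were fitted. DESeq2 called 2.44% of all tested genes, against 1.4% in the main fit, and for the other fits the share is not given here. The WT diet count was 0 to 2 with 1 library left out. The WT sex count of 6 was 2 with the L code as a term and 2 (without WT control replicate 8) to 8 (without the library labelled KI ASK1i replicate 5) with 1 library left out. With each library left out in turn, the counts for diet in KI, the interaction, sex in KI and the sex difference were 0 to 0. Replicate numbers are shared between groups, but 37 same-numbered pairs had deviations correlated at -0.27 to 0.42 (median 0.04), with 14 over 0.1, among them 3 of 3 pairs numbered 1 and 5 of 6 numbered 1P. Not every pair was over 0.1, and a library correlated best with its own number in 15 of 74 comparisons with another group, so the number was not taken as a pairing. With the replicate block the counts were 26 and 31 for KI against WT, 0 for diet in WT and 1, C8b, for sex in WT. The share of all tested genes called with that block is not given here. Scaling moved the median of all genes by under 0.1. Depth limits Cd46, Cr2, Cfd and, in WT, Fcnb. The fits within codes L1 and L6, sex within genotype beside the diet and genotype comparisons, and the bounds for Fcnb and Cfd without named libraries were chosen after seeing the data.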
